A study of Rattus norvegicus with 14 samples.

Results

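The genes of the cytosolic ribosomal proteins were followed in colonocytes, the epithelial cells of the colon, of rats fed a diet of normal (NPD) or high (HPD) protein content. Members were the genes whose name on the array began with Rpl, Rps or Rplp followed by a number, without the S6 kinases. They came to 86 of 26276 gene names, with 149 of the 30367 probes, and 53 belonged to the large subunit and 33 to the small one. Of the 86 names, 76 were plain names, 6 were names of paralogues, 3 of pseudogenes and 1 of a binding protein (Rps19bp1), and all were counted. The rats were male Wistar, young at the start, and received for 15 days isocaloric diets in which whole milk protein gave 14% (NPD) or 55% (HPD) of the energy. Colonocytes were detached with EDTA and their RNA was labelled with Cy3 for Agilent arrays. Each array held the RNA of a single rat, 7 on the NPD and 7 on the HPD.

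The ribosome is built from a small subunit, which reads the mRNA, and a large subunit, which joins amino acids and releases the chain through an exit tunnel. Each subunit holds rRNA and a fixed set of proteins, most in a single copy, and their genes are usually expressed together and at very high levels. Most of their mRNAs begin with a C and a run of pyrimidines, the 5′ terminal oligopyrimidine (TOP) motif, through which mTORC1 controls their translation. Amino acids are a signal to mTORC1, and the colonic epithelium renews within days, which gives ribosome production a constant place in this tissue.

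Rpl5 and Rps4x had the lowest fold changes of the family and were each read by a single probe. The Rpl5 probe started at base 367 of its transcript and the Rps4x probe at base 98. Neither gene had a probe nearer the 3′ end to compare. Their probe sequences are shown because both results rest on them, and coordinates are those of the array design (rat build rn4, minus strand, chr14:2401385-2401444 for Rpl5 and chrX:90252399-90252458 for Rps4x).
Rpl5: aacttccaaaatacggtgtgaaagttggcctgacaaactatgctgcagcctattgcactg
Rps4x: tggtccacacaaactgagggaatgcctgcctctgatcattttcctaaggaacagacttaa

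Rpl17 had a probe nearer the 5′ end and another nearer the 3′ end of the same transcript, and the pair is shown because the diets compared differently at both ends. The Rpl17 probes started at base 164 and base 477 of the transcript (rn4, plus strand, chr18:71864449-71864508 and chr18:71865696-71865754).
Rpl17 5′ probe: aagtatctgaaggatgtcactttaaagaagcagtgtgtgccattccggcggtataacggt
Rpl17 3′ probe: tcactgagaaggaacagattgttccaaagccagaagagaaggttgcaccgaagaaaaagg

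Each gene was represented by its brightest probe, and values are log2 signals relative to the median probe of the same array. A fold change is the HPD mean minus the NPD mean on this scale, with the standard error (SE) of limma. Between 18839 and 20976 probes were well above background per array. The median signal was 111 (range 89.4 to 130) on HPD arrays and 149 (range 113 to 180) on NPD arrays (exact two-sided permutation test, p = 0.00408), so that the centring entered every value below. There were 2 slides, scanned in separate runs, with 4 NPD and 3 HPD arrays on slide 1 and 3 NPD and 4 HPD arrays on slide 2. The 8 epithelial marker genes tested were well above background on all 14 arrays, and so were the 7 absorptive and 7 goblet cell markers. The summed goblet cell markers reached 12.32 to 12.92 on NPD and 11.98 to 13.42 on HPD arrays, and the summed absorptive markers 12.30 to 12.79 and 12.41 to 13.18. The immune cell markers lay from 4.86 to 6.20 and from 4.93 to 5.31, with 1 of 11 not well above background on any array. The stem and cycling cell markers lay from 7.02 to 7.75 and from 6.87 to 7.84, the enteroendocrine markers from 9.09 to 10.14 and from 8.65 to 10.38, and the stromal and muscle markers from 3.65 to 4.77 and from 3.49 to 4.50. The red blood cell markers, 2 of which were on the array, lay from -0.26 to 3.60 and from -2.30 to 5.42. The part of these cell types in the results below was not tested. In such bulk RNA, fewer cells of a type and less RNA per cell cannot be told apart.

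No ribosomal protein gene passed the test between the diets. Of 86 members, 0 had a limma q-value below 0.1, the lowest q-value being 0.417, against 14 of 26276 genes (0.0533%) over the array, all of which were higher with the HPD. Where the limma p was below 0.05 before adjustment, 2 members were lower, Rpl5 and Rps4x, and 1 was higher, Rpl27-ps1, where 5.48% of all genes were lower and 6.05% higher. At that p, the tenth of genes with the highest signal, which held most members, had 78 of 2628 lower and 106 higher. By the brightest probe, no member had 7 HPD values clear of the 7 NPD values, which 0.282% of all genes had. Among all 149 member probes, 7 were lower at an unadjusted limma p below 0.05 (5.55% of all probes) and 1 had groups that did not overlap (0.273% of all probes). The latter was the 5′ probe of Rpl28, a large subunit protein, at 7.61 to 8.10 (median 7.69) in NPD-fed and 7.12 to 7.53 (median 7.49) in HPD-fed rats. Its log2 fold change was -0.32 (SE 0.11, limma q = 0.417), while the brightest probe of Rpl28 gave -0.085 (SE 0.14). The exact permutation p of the 5′ probe, 0.000583, is the smallest possible. It follows from the lack of overlap by which the probe was picked and adds no support. The Rpl27-ps1 probe was well above background on 1 of 14 arrays, so no fold is given for it.

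After median centring the members as a family sat where the array as a whole sat. Their median log2 fold change was 0.11, that of all 26276 genes was 0.11, and the quartiles of the members were 0.037 and 0.16. Of the members, 18 (20.9%) were lower in HPD-fed rats by any amount, against 35.0% of all genes. They were bright: 80 of the 86 (93.0%) belonged to the tenth of genes with the highest signal, in which 22.3% of genes were lower and the median log2 fold change was 0.13. The probes of 83 members were well above background on all 14 arrays, and none was saturated. Rps20 had no value on 1 HPD array, which its fit left out.

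**Figure D1:**
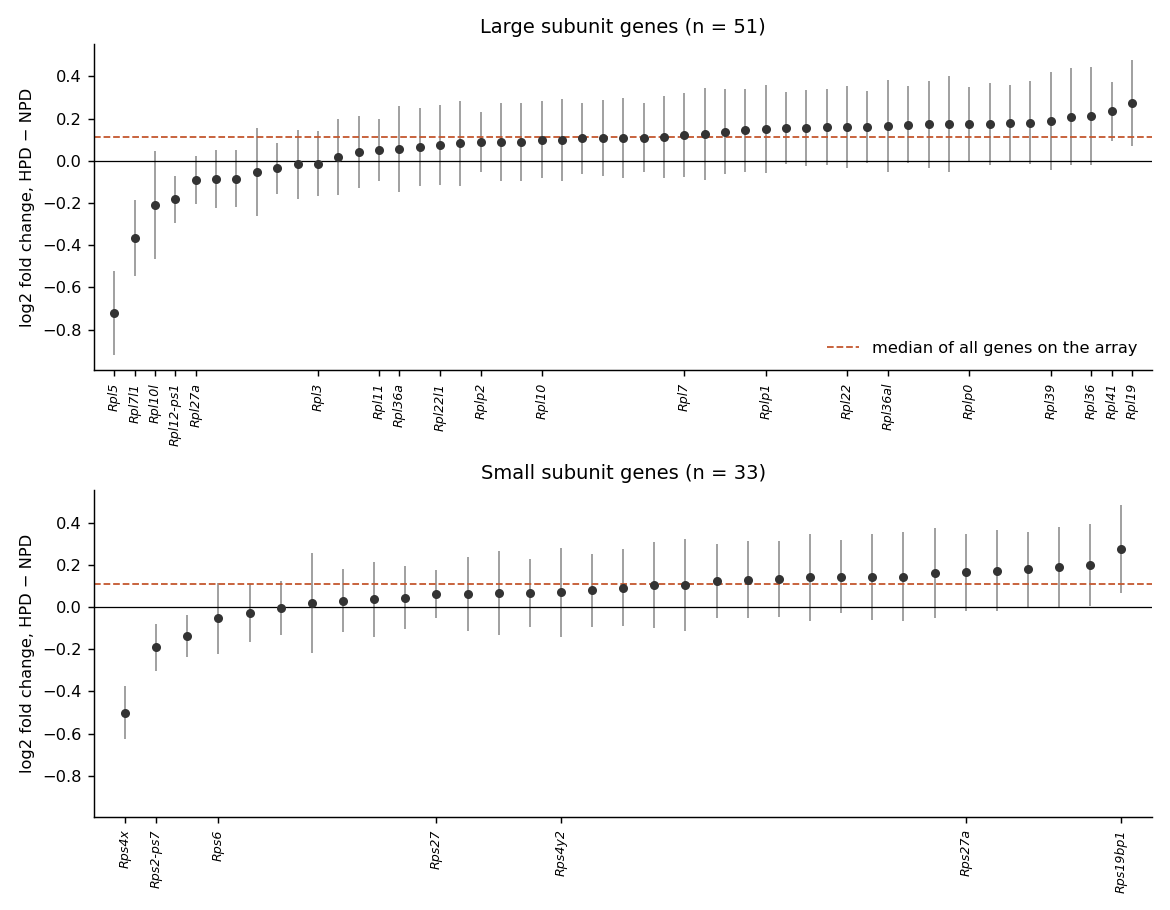
Log2 fold change (HPD minus NPD, points) with its standard error (bars) for the 84 ribosomal protein genes well above background on all arrays of at least 1 diet, 51 of the large subunit (top) and 33 of the small subunit (bottom), in order of size, with some of the genes in the text named. Most genes lie near the median of all genes on the array (0.11, dashed), with Rpl5 (-0.72) and Rps4x (-0.50) below the others.

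Where the members lay relative to the array depended on the normalization, and they sat with the array as a whole only under some settings. The all-probe median was 0.11 after median centring and 0.00067 after cyclic loess, and under cyclic loess the median of the members was -0.061, with 73 of 86 lower, where 48.8% of all genes were lower, and 0 called. At an unadjusted limma p below 0.05, cyclic loess gave 13 members lower and 0 higher, against 6.33% and 5.53% of all genes. In the authors' deposited table of normalized values, with diet as the only term, the members' median was -0.085 and 0 members were called. There 67 of 86 members were lower, and at an unadjusted limma p below 0.05, 15 were lower and 1 higher. Fitted with slide as a block, that table gave the members a median of -0.12 against 0.034 for all rows. With slide, 78 of 86 members were lower, and 19 were lower and 1 higher at that unadjusted p. The shares of all rows beside these counts are not given here. In the fit with slide, 10 members (11.6%) were called, 9 of them lower, where 10.5% of all rows were called. Rpl5, Rps4x, Rpl7, Rpl7l1, Rpl12-ps1, Rpl17, Rpl27a and Rps2-ps7 were among the lower ones. With normexp background correction 7 members (8.14%) were called, 6 of them lower, against 16.9% of all genes. The members' median with normexp was -0.045 against 0.070 for all probes, and 58 of 86 members were lower, against 37.3% of all genes. Counting lower calls alone, 10.5% of the members and 6.50% of all rows were called lower in the deposited table with slide in the fit, and 6.98% of the members and 6.21% of all genes with normexp.

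Among the large subunit proteins, Rpl5 and Rpl11 bind the 5S rRNA together and carry it into the ribosome, and outside the ribosome they bind Mdm2, the ligase that degrades p53. In Rpl5, NPD values ran from 8.35 to 9.00 (median 8.77) and HPD values from 7.45 to 8.73 (median 8.10). HPD replicate 1, at 8.73, lay among the NPD rats, and the other 6 HPD rats, the highest at 8.31, lay below all of them. The log2 fold change of Rpl5 was -0.72 (SE 0.20, 95% interval -1.15 to -0.29, limma q = 0.417), and 6 of the 7 rats on the HPD were below the mean of the NPD. The exact two-sided permutation test for Rpl5 gave p = 0.00408 over all splits of the 14 arrays and p = 0.00245 with the arrays regrouped within their slide. The difference for Rpl5 was -0.44 on slide 1 and -0.85 on slide 2. With each array left out in turn, a member was called only without HPD replicate 1. Rpl5 was then the 1 member called, at -0.84 (limma q = 0.0976), where 0.499% of all genes were called. That fit was singled out after seeing the data. It left out the HPD value nearest the NPD rats and so adds no separate support.

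Rpl11, the partner of Rpl5, did not share this difference. NPD values of Rpl11 ran from 10.28 to 10.85 (median 10.42) and HPD values from 10.14 to 11.03 (median 10.51). The groups overlapped over most of their range, with a log2 fold change of 0.050 (SE 0.15, 95% interval -0.26 to 0.36, exact permutation p = 0.72). Both HPD replicate 1, the lowest, and HPD replicate 7, the highest, lay outside the NPD range.

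The stalk of the large subunit, made of Rplp0 and the Rplp1 and Rplp2 pair, draws elongation factors to the ribosome. Rplp0 was at 11.61 to 12.28 (median 11.75) in NPD-fed and 11.48 to 12.55 (median 12.02) in HPD-fed rats. The log2 fold changes were 0.17 (SE 0.17) for Rplp0, 0.15 (SE 0.21) for Rplp1 and 0.089 (SE 0.14) for Rplp2. None differed beyond the spread between rats, with exact permutation p between 0.329 and 0.517.

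Other core proteins of the large subunit gave values of the same size. Rpl3, which lies by the peptidyl transferase centre, had a log2 fold change of -0.014 (SE 0.15), and Rpl10, which joins late and is needed for the subunits to meet, of 0.10 (SE 0.18). Rpl19 had the highest value of the large subunit genes well above background. Rpl19 was at 10.53 to 11.31 (median 10.62) in NPD-fed and 10.41 to 11.71 (median 11.16) in HPD-fed rats, a log2 fold change of 0.27 (SE 0.20, exact permutation p = 0.212). Rpl41, which encodes one of the shortest known proteins, was at 12.01 to 12.66 (median 12.18) and 12.17 to 12.94 (median 12.50), with a log2 fold change of 0.24 (SE 0.14, exact permutation p = 0.0897). Rpl36 followed at 0.21 (SE 0.23), and the lowest core gene after Rpl5 was Rpl27a at -0.090 (SE 0.11). For Rpl19 and Rpl41 the HPD mean was above the NPD mean on both slides, and the groups overlapped.

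Paralogues can replace a core protein in some ribosomes or have tasks of their own. Rpl7l1, a nucleolar relative of Rpl7 that acts in ribosome assembly, had NPD values of 3.93 to 4.73 (median 4.33) and HPD values of 3.65 to 4.69 (median 3.88). Its log2 fold change was -0.37 (SE 0.18, exact permutation p = 0.0676 over all splits and p = 0.0278 within slides), and Rpl7 itself gave 0.12 (SE 0.20). The direction of Rpl7 turned with the probe and the table, to -0.27 at its 5′ probe, -0.28 in the deposited table and -0.29 (limma q = 0.0916) there with slide in the fit. With slide as a block and HPD replicate 1 left out, a setting chosen after seeing the data, Rpl7l1, Rpl5 and Rps4x were the 3 members called, all lower, where 5.48% of all genes were called. Rpl22l1 (0.074, SE 0.19) and Rpl22 (0.16, SE 0.19) had log2 fold changes within 1 SE of each other, as had Rpl36al (0.17, SE 0.22) and Rpl36a (0.055, SE 0.21). Rpl39 gave 0.19 (SE 0.23) and Rpl10l, whose core form Rpl10 is given above, -0.21 (SE 0.25). The Rpl3l probe was well above background on 1 of 14 arrays, and no fold is given. Rps27l and Rpl39l were not among the names of the array. The pseudogene name Rpl12-ps1 gave -0.18 (SE 0.11), all 7 HPD values lying under the NPD mean, with exact permutation p = 0.0711. Its other, dimmer probe, nearer the 5′ end of the transcript, gave -0.38 (SE 0.12, limma q = 0.417). For that probe the exact permutation test gave p = 0.00117 over all splits and p = 0.000816 within slides. Rpl12-ps1 was named for its low fold change, and probe ends were compared after the values were seen. These p-values therefore add no separate support.

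In the small subunit Rps4x stood lowest. Rps4x, the X-linked form of the S4 protein, was measured by 10 spots of a single probe, with NPD values of 7.26 to 7.95 (median 7.58) and HPD values of 6.74 to 7.30 (median 7.12). All 7 HPD rats were below the NPD mean, and the ranges met only where HPD replicate 5 (7.30) lay above NPD replicate 5 (7.26). The log2 fold change of Rps4x was -0.50 (SE 0.13, 95% interval -0.77 to -0.23, limma q = 0.417). The exact permutation test for Rps4x gave p = 0.00117 over all splits and p = 0.00245 within slides, with -0.44 on slide 1 and -0.54 on slide 2. Rps4x was named because its fold change was among the lowest of the members, so these p-values add no separate support. The related name Rps4y2 had a log2 fold change of 0.070 (SE 0.21).

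Rps6, the S6 kinase substrate at the end of mTORC1 signalling, was at 9.39 to 10.15 (median 9.66) in NPD-fed and 9.17 to 10.20 (median 9.53) in HPD-fed rats. The groups overlapped over nearly their whole range, with a log2 fold change of -0.053 (SE 0.17, exact permutation p = 0.745). Rps27a, made as a fusion with ubiquitin, gave 0.16 (SE 0.18) and Rps27 0.061 (SE 0.11). Rps2-ps7, a pseudogene name, gave -0.19 (SE 0.11). Rps19bp1, a nucleolar binding partner of Rps19 and not a part of the ribosome, gave 0.28 (SE 0.21), with its probe well above background on 5 NPD and all 7 HPD arrays.

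**Figure D2:**
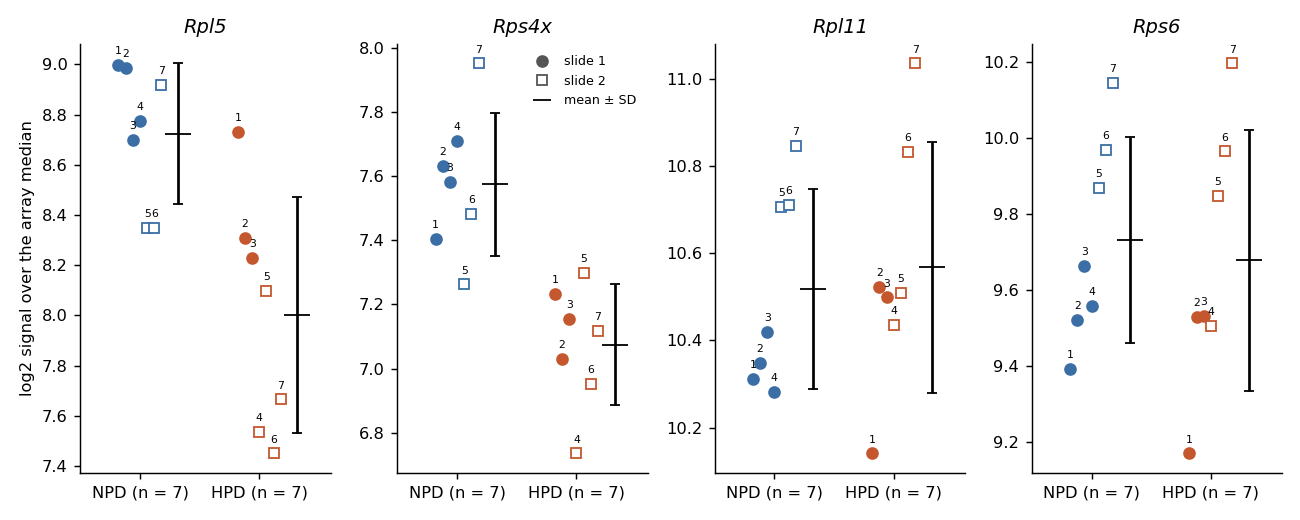
Log2 signal relative to the array median for Rpl5, Rps4x, Rpl11 and Rps6 on each of the 7 NPD and 7 HPD arrays (points with replicate numbers, filled for slide 1 and open for slide 2), with the mean and SD of each diet. Rpl5 and Rps4x lie lower in HPD-fed rats (medians 8.10 and 7.12 against 8.77 and 7.58), while Rpl11 and Rps6 overlap. Rpl11 and Rps6 lie higher on slide 2 and Rpl5 lower (-0.53 with both terms fitted), while Rps4x differs little (-0.065).

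Of the ribosomal protein genes outside the naming rule, Fau and Rpsa lay near the members' median (0.11), and Gnb2l1 was lower. Fau, a ubiquitin-like protein fused to a small subunit protein, had a log2 fold change of 0.085 (SE 0.15), and Rpsa of 0.13 (SE 0.22). Gnb2l1 (Rack1), a signalling scaffold on the small subunit, was at 7.44 to 7.89 (median 7.65) in NPD-fed and 6.77 to 7.32 (median 7.15) in HPD-fed rats. The 2 groups of Gnb2l1 did not overlap, which held for no member by its brightest probe and for 0.282% of all genes. The log2 fold change of Gnb2l1 was -0.57 (SE 0.12, limma q = 0.289). Its exact permutation p of 0.000583 is the smallest that the 14 arrays can give.

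The large and the small subunit did not separate. The median log2 fold change was 0.11 over the 53 large subunit genes, of which 12 were lower, and 0.091 over the 33 small subunit genes, of which 6 were lower. Within single arrays the median of the large subunit genes minus that of the small ones ran from -0.048 to 0.052 (median 0.0016) in NPD-fed and from -0.20 to 0.046 (median 0.014) in HPD-fed rats. The lowest of these, at -0.20, was HPD replicate 2, and the next lowest HPD array was at -0.049. The array medians themselves ran from 9.84 to 10.97 for the large and from 9.82 to 10.95 for the small subunit.

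That spread followed the slide. The members' array medians were 9.83 to 10.45 on slide 1 and 10.41 to 10.96 on slide 2, with both diets on each. The HPD mean minus the NPD mean of these medians was 0.092 on slide 1 and -0.0087 on slide 2. When both terms were fitted, 76 of the 86 members differed between the slides at a q-value below 0.1 (88.4%), 73 of them upward on slide 2, against 40.1% of all probes. The median of the members was 0.52 higher on slide 2 and that of all probes 0.18 higher. Rps4x (-0.065), Rps2-ps7 (0.031) and Rpl12-ps1 (0.092) had a slide difference near 0, and Rpl5 had one of -0.53. With slide as a block the members' median log2 fold change between the diets was 0.030, with 32 of 86 lower, against 38.2% of all genes, and 0 called. At an unadjusted limma p below 0.05 that fit gave 3 members lower and 1 higher, against 7.26% and 7.62% of all genes. HPD replicate 1 had the lowest median of all arrays, and without it the difference of the array medians between the diets went from 0.12 to 0.23.

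**Figure D3:**
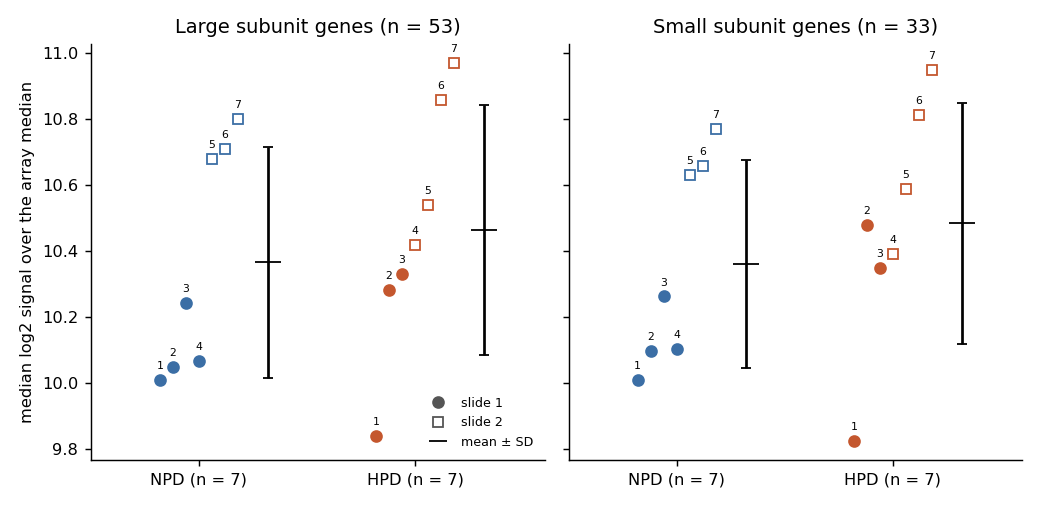
Median log2 signal relative to the array median over the 53 large (left) and 33 small (right) subunit genes on each of the 7 NPD and 7 HPD arrays (points with replicate numbers, filled for slide 1 and open for slide 2), with the mean and SD of each diet. In both panels the slide 2 arrays lie higher on average in each diet, and HPD replicate 1 is lowest (9.84 and 9.82).

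Probes at different places of the same ribosomal protein transcript gave different answers. For 40 members, 2 probes of the same transcript lay at least 60 bases apart and were well above background on all arrays. The probe nearer the 3′ end had the larger fold change, HPD over NPD, in 38 of the 40, and the median difference between the ends was 0.14 on the log2 scale. The 3′ probes had a median log2 fold change of 0.12, with 5 of 40 lower, and the 5′ probes of -0.012, with 21 of 40 lower. The brightest probe, which stands for the gene elsewhere in the text, was the 3′ one in 31 of the 40. Rpl5 and Rps4x, each with a single probe, had no such pair. The part of probe position in their fold changes was not tested.

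Rpl17, a protein at the exit tunnel, had the largest gap. At the 5′ probe of Rpl17, NPD values ran from 8.47 to 8.86 (median 8.66) and HPD values from 8.01 to 8.67 (median 8.33), a log2 fold change of -0.34 (SE 0.12). At its 3′ probe they ran from 8.45 to 9.46 (median 8.75) and from 8.36 to 9.70 (median 9.02), a log2 fold change of 0.13 (SE 0.22). In Rpl7 the 5′ probe gave -0.27 (SE 0.12) against 0.12 at the 3′ end. Rps3 gave -0.21 (SE 0.11) and 0.12 (SE 0.18). The smaller value lay at the 3′ end in 2 genes, Rps23 and Rpl22l1. Of the 40 pairs, 21 of the 3′ probes and 0 of the 5′ probes held the letters AATAAA, the usual polyadenylation signal.

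On single arrays the median of the 3′ minus the 5′ probe ran from 0.68 to 1.14 (median 0.90) in NPD-fed and from 0.66 to 1.36 (median 1.19) in HPD-fed rats. HPD replicate 1 was the lowest of all 14 arrays, and without it the HPD arrays began at 1.12. The mean was 0.23 higher in HPD-fed rats, with 0.18 on slide 1 and 0.21 on slide 2, and it was 0.31 higher without HPD replicate 1. Among 1555 other transcripts with such a pair, 64.8% had the larger fold change at the 3′ end, with a median difference of 0.091 between the ends. The array median over those transcripts was 0.093 higher in HPD-fed rats (exact two-sided permutation p = 0.238, and p = 0.162 within slides). Where the pairs lay no farther apart than in the members (587 transcripts), 71.9% had it, with a median of 0.10. The part of RNA integrity and of labelling in this was not tested. Probes of the same transcript whose bases overlapped, 20 pairs in 14 members, differed in fold change by 0.027 on the log2 scale at the median and by 0.086 at most.

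**Figure D4:**
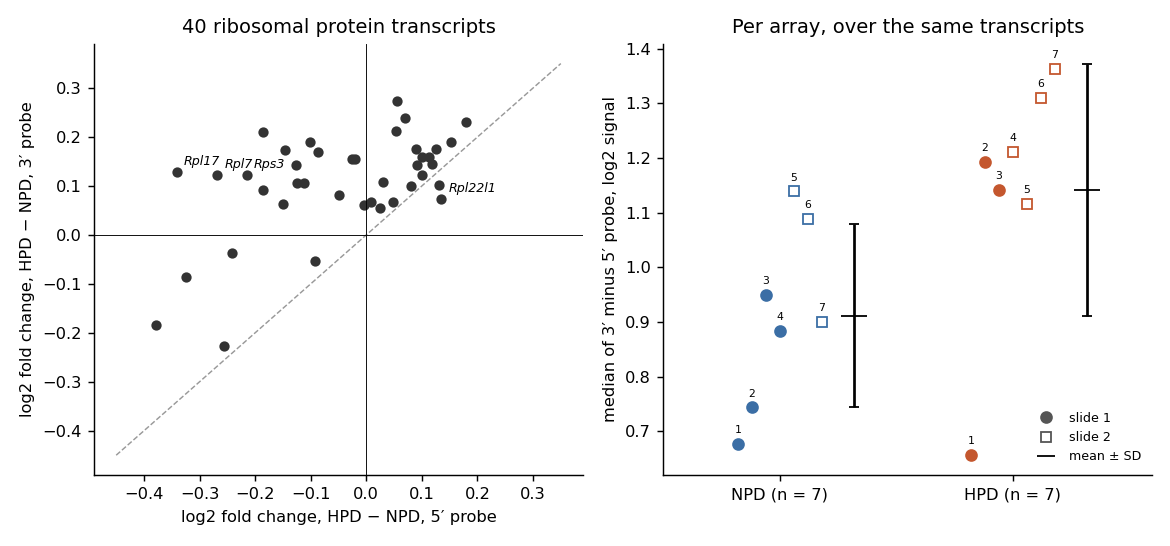
Left, log2 fold change (HPD minus NPD) at the 5′ probe (horizontal) and the 3′ probe (vertical) of 40 ribosomal protein transcripts, with the line of equal change dashed and 38 transcripts above it. Right, the median over these transcripts of the 3′ minus the 5′ probe (log2 signal) on each of the 7 NPD and 7 HPD arrays (points with replicate numbers, filled for slide 1 and open for slide 2), with the mean and SD of each diet. HPD replicate 1 (0.66) lies apart from the other HPD arrays.

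Of the 149 probes, 83 listed 2 or more Ensembl transcripts and 42 listed 2 or more RefSeq transcripts in the array design. Whether these were isoforms of the same gene or other loci was not tested, and the values of such probes are uncertain to that extent.

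Many members had, near their annotated start, a pyrimidine run of the kind found in the TOP motif. Of the 86 members, 66 matched a RefSeq entry (build GRCr8), and 38 of these (57.6%) had, on the sense strand within 15 bases before to 15 after the annotated start, a C followed by pyrimidines only in a run of at least 8 bases. The share was 8.45% over 27457 genes. A run could lie wholly before the annotated start, as it does in Rpl5 below. These shares are therefore not those of mRNAs that begin with the motif. Windows of 30 bases are shown for a member that was lower in HPD-fed rats and for others that were not, with the run in capitals, at chr14:1995211-1995240 (minus) for Rpl5, chr10:83519049-83519078 (plus) for Rpl19, chr8:71290858-71290887 (minus) for Rplp1 and chr10:14251833-14251862 (plus) for Rps2.
Rpl5: aCTCTCTTTCCCacgtcgcttgcgtcctgg
Rpl19: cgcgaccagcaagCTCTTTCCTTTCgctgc
Rplp1: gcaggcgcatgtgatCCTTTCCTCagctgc
Rps2: CCTCTTCTTTTTCTTCgggaaaacacgtga
The windows of Rps4x, Rps6 and Rpl11 held no such run, which says only that these letters are not next to the annotated start.

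Other genes of the pathway were read from lists. For comparison, 35.0% of all genes were lower by any amount. Nearly all listed genes were well above background on all arrays of at least 1 diet. Of the 16060 genes on the array that were so, 41.8% were lower by any amount. At an unadjusted limma p below 0.05, 1331 of these 16060 were lower and 895 higher. Of 22 translation factors and other mRNAs of the TOP class, 10 were lower and 0 passed a q-value of 0.1, with a median log2 fold change of 0.031. At an unadjusted limma p below 0.05 there were 4, all lower, namely Gnb2l1, the chaperonin subunit Cct4 (-0.60, SE 0.16), the histone chaperone Nap1l1 (-0.56, SE 0.19) and the elongation factor Eef2 (-0.40, SE 0.15). Of 56 genes of ribosome assembly and rRNA synthesis, 30 were lower, the median was -0.020, 0 passed the q-value, and the 9 with an unadjusted limma p below 0.05 were all lower. The RNA polymerase I subunits Polr1e (-0.54, SE 0.13), Polr1b (-0.53, SE 0.13) and Polr1a (-0.37, SE 0.15) were among these, with the assembly factors Noc2l (-0.53, SE 0.16) and Bop1 (-0.43, SE 0.18), while another subunit of that polymerase, Polr1c, gave 0.11 (SE 0.18). Of 19 genes that signal growth to the ribosome, with a median of 0.098, 5 were lower and 1, Mtor, had an unadjusted limma p below 0.05 (-0.31, SE 0.14, limma q = 0.425). The mitochondrial ribosomal proteins, whose genes are separate and make the ribosome of the mitochondrion, had a median of 0.096 over 70 genes, with 22 lower and 0 called. At an unadjusted limma p below 0.05 they counted 11 lower and 0 higher, where 5.48% of all genes were lower at that threshold. Of the 70, 69 belonged to the 16060 genes well above background, of which 1331 were lower. The members, as given above, counted 2 lower and 1 higher. Most members lay in the tenth of genes with the highest signal, where 78 of 2628 were lower, so these counts are not directly comparable.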

How the data were processed

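Colonocyte RNA of 7 NPD and 7 HPD rats was measured on 1-colour Agilent arrays. For every array the authors deposited a scanner file (Agilent Feature Extraction 10.7.3.1 per the file headers), in which spot intensity is linear and not normalized between arrays, with marks for background and outliers. They also deposited a table of log2 values, centred by array and averaged per gene name with limma. The signal column behind that table is not given in the sources used here. Rats that the authors removed as outliers were not analysed here. Columns of other samples numbered 0.

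From the scanner output, the background-subtracted intensity was log2-transformed without control spots and spots marked as outliers, averaged over the spots of a probe and centred on the median over probes. HPD was set against NPD in R 4.3.3 with lmFit and eBayes of limma 3.58.1 and version 1.17.8 of the data.table package. Diet was the sole term, p-values were adjusted by Benjamini-Hochberg over 30367 probes, and the q-value threshold was 0.1. Slide was added as a block in alternatives. For single genes, exact permutation tests (two-sided) used the 3432 assignments of 14 arrays, or the 1225 within slides. The fit was tested on simulated data. The brightest probe, by mean log2 signal, stood for a gene. Named genes were the members called, the 8 lowest and 4 highest well above background, those without overlap, and a fixed set (the 5S partners, the stalk, Rps6, Rps27a and paralogues with their core genes). Other genes named (Rpl17, Rpl28, Rps2, Rps3, Rps23, Rps4y2 and those of the lists) were chosen after their values were seen, as was the comparison of probe ends. Some genes that the rule names are not reported here. Lists of translation factors, assembly factors, growth signals and markers were used as written down. The members and lists were chosen with earlier results of these data known. The array design gave the gene names, and 66 members matched RefSeq start sites. Alternatives were other signal columns, centrings and normalizations, a background filter, slide or replicate number as a block, a trend in eBayes, the deposited table, q = 0.05, all probes of a gene, and each array left out. Precision is limited by the number of arrays.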

Additional observations from a re-analysis of the deposited data

Results flagged for a closer look

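Of 64 group values checked for a single array far from the others, 3 stood out by Dixon's criterion, where chance gives about 1 in 20. The pseudogene name Rpl12-ps1 had a high array among NPD-fed rats, replicate 7 at 10.32, with the next at 10.03. The array median of the large minus the small subunit genes had a low HPD array, replicate 2 at -0.20, with the next at -0.049. The array median of the 3′ minus the 5′ probes of ribosomal protein transcripts had a low HPD array, replicate 1 at 0.66, with the next at 1.12.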

How the results depend on the processing

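With diet as the only term and the background-subtracted signal, 17 probes were called over the array and 0 members. Over the array, normexp called 5142 probes, slide as a block 27, the replicate block 8, the replicate block together with slide 0, and slide as a block without HPD replicate 1, chosen after seeing the data, 1640. Once slide was a block, the fit called 2767 rows of the deposited table. Members called numbered 7 with normexp, 10 in the deposited table once slide was a block and 3 with slide as a block without HPD replicate 1, and 0 under the replicate block. With diet as the only term, 0 members were called in the deposited table. Leaving out each array in turn gave 9 to 151 probes and 0 to 1 members, with both highest counts without HPD replicate 1. The probes called moved by over 1.5 times also without HPD replicate 6 (28), NPD replicate 2 (11), HPD replicate 4 or 5 (10 each) and NPD replicate 4 or 6 (9 each). Same-numbered rats deviated together with correlations of -0.090 to 0.39, and 5 of 14 samples correlated best with their own number among 7. In both diets numbers 1 to 3 were on slide 1 and 5 to 7 on slide 2. The replicate block was not used in the main fit, and whether rats were paired by number is not known.

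Rpl5 and Rps4x were lower in HPD-fed rats under every alternative run. Among 923 values of the named genes, 93 changed sign, 67 of them by under 1 SE with no call on either side. The others, on the log2 scale, were Rpl41 (-0.11), Rpl11 (-0.11), Rplp0 (-0.081), Rplp2 (-0.17) and Rps27 (-0.11) after quantile normalization, Rpl11 (-0.12), Rplp0 (-0.037), Rplp2 (-0.11) and Rps27 (-0.12) after cyclic loess, Rpl11 (-0.10), Rplp2 (-0.063) and Rps27 (-0.090) with normexp, Rpl11 (-0.10), Rplp2 (-0.064), Rpl7 (-0.28) and Rps27 (-0.11) in the deposited table, and Rpl36 (-0.073), Rpl11 (-0.12), Rplp2 (-0.086), Rps27a (-0.038), Rpl36al (-0.052), Rpl22 (-0.060), Rpl7 (-0.29), Rps27 (-0.087) and Rpl39 (-0.057) in that table with slide as a block. Rpl7 gave -0.27 at its 5′ probe. The cause was not tested. The median of the large subunit genes ranged from -0.11 to 0.21, that of the small ones from -0.13 to 0.19, and the difference of the 3′ and 5′ probes from 0.085 to 0.17 over the alternatives run. Signal over background limited the reading of Rpl3l and Rpl27-ps1. Rpl3l had no value with only probes well above background.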
